A study of Mus musculus with 4 samples.

Results

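The cells described here are tumour cells of mouse ascites with high summed counts of Cd24a, Gkn2 and Krtdap, selected on their unique molecular identifiers (UMIs, 1 per captured transcript) of 3 genes: a tumour-gated cell was a member if Cd24a, Gkn2 and Krtdap summed to at least 5 UMIs. A cell was tumour-gated if it had at least 200 genes, at most 33% mitochondrial UMIs, at least 5 UMIs of Krt7, Krt8, Krt18, Krt19 and Wt1 together, and no UMI of Ptprc, the gene of the leukocyte surface protein CD45. Of 46342 cells, 26012 were tumour-gated and 4320 of these were members. The other 21692 tumour-gated cells, with 0 to 4 UMIs of the 3 genes, served as the comparison.

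Ascites cells of C57BL/6 mice were profiled by single-cell RNA-seq (BD Rhapsody) in 4 libraries, 1 per treatment, with the animals of a treatment pooled. Each treatment was a single capture, so treatment, library and animals cannot be told apart between the libraries. All mice were female, 6 weeks old at injection, and carried ID8-Trp53-/- cells, a Trp53 knockout line derived from mouse ovarian surface epithelium, which also expressed a near-infrared fluorescent protein, in the peritoneal cavity. Treatment began after 7 days and ended at about 3 mL of ascites. Control mice received DMSO and an IgG2a isotype antibody. BTYNB mice received BTYNB, a small-molecule inhibitor of the RNA-binding protein IGF2BP1, with the isotype antibody, anti-PD-1 mice an antibody to PD-1, an inhibitory receptor of T cells, with DMSO, and combination mice both agents. The labels name doses of 50 mg/kg for the inhibitor and 100 ng for an antibody, whereas the methods of the study name other amounts. Erythrocytes were depleted before freezing and dead cells were removed before capture, per the labels only where applicable.

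Gkn2 encodes a gastrokine. Gastrokines and trefoil factors are secreted by the mucous cells that line the stomach and protect its surface together with mucins. Cd24a encodes a surface glycoprotein that restrains phagocytes through Siglec receptors, and Krtdap a secreted peptide of differentiating epidermis. ID8 cells descend from the ovarian surface, a mesothelium, and are usually recognised by Wt1, keratins and mesothelial genes such as Upk3b.

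The libraries held 7074 to 19247 cells with a median of 2562 UMIs per cell in BTYNB and 6908 to 9480.5 in the other libraries. Pairs of libraries shared 0 to 4 cell barcodes, none of them between members. Members were deeper than the other tumour-gated cells in each library, with medians of 9112 against 6547 UMIs in anti-PD-1, 13983 against 9515 in control, 26660 against 13753 in BTYNB and 15810 against 10862.5 in combination. Their median mitochondrial share was 9.74% to 11.3%, against 11.1% to 12.2% in the other cells.

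Members were most frequent in the anti-PD-1 library, where they made up 25.4% of tumour-gated cells (2771 of 10923, exact 95% binomial interval 24.6% to 26.2%). They made up 6.82% in control (485 of 7114, 6.24% to 7.43%), 12.0% in BTYNB (433 of 3606, 10.96% to 13.1%) and 14.4% in combination (631 of 4369, 13.4% to 15.5%). These intervals, like all others given, cover counting error only and not the spread between mice. A deeper cell meets a rule on UMIs more easily. When each cell was thinned to 5000 UMIs before gate and rule were applied, the share was 23.4% in anti-PD-1, against 1.55% in control, 2.08% in BTYNB and 3.65% in combination, with 1950, 225, 782 and 0 shallower cells left out. The order of the libraries was kept at equal depth and the distance of anti-PD-1 from the others was wider.

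**Figure D1:**
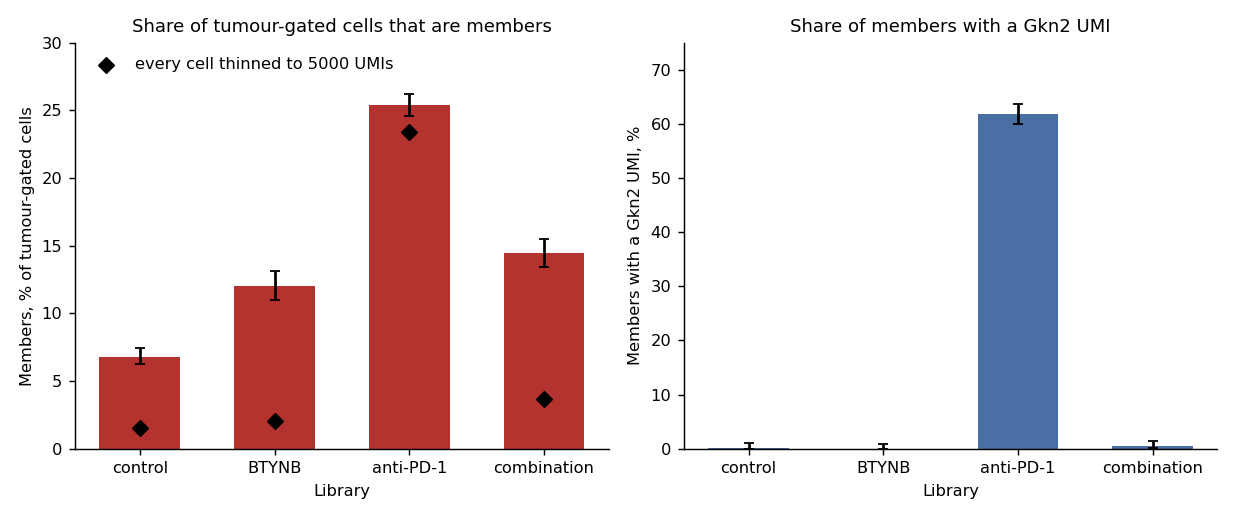
Left: members as a percentage of tumour-gated cells in each library (bars, with exact 95% binomial intervals) and the same with every cell thinned to 5000 UMIs (diamonds). Right: percentage of members with at least 1 Gkn2 UMI, with exact 95% binomial intervals. The anti-PD-1 bar stands at 25.4% on the left and at 61.9% on the right, where the other libraries lie between 0% and 0.475%.

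The rule picked unlike cells in the 4 libraries. A Gkn2 UMI was present in 1714 of 2771 members of anti-PD-1 (61.9%, 60.0% to 63.7%), in 1 of 485 in control, in 0 of 433 in BTYNB (which allows a share of up to 0.693%) and in 3 of 631 in combination. Krtdap supplied 78.6%, 85.1% and 88.1% of the rule-gene UMIs of members in control, BTYNB and combination, but 38.0% in anti-PD-1, where Gkn2 supplied 39.2% and Cd24a 22.7%. In anti-PD-1, 1589 members (57.3%) had UMIs of all 3 genes, 700 (25.3%) had Cd24a and Krtdap without Gkn2, and 245 (8.84%) had Krtdap alone. Krtdap alone brought in 41.4% of members in control, 48.5% in BTYNB and 52.8% in combination. A Cd24a UMI was present in 88.8% of members of anti-PD-1, but in 58.6%, 51.5% and 47.2% of members of control, BTYNB and combination. The names Cd24a-high and gastric-like were therefore met by the markers in anti-PD-1 only, and the cells that passed the rule in the other 3 libraries were mainly picked by Krtdap.

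Levels are given in CPM, the UMIs of a gene summed over the cells of a group, per 1000000 UMIs of that group. Gkn2 reached 925 CPM in members of anti-PD-1 (exact 95% Poisson interval 913 to 937), and 0.143 CPM in members of control, 0 in BTYNB and 0.371 in combination. The other tumour-gated cells of anti-PD-1 had 5.53 CPM. Cd24a stood at 536 against 35.7 CPM in members and other cells of anti-PD-1, 121 against 23.9 CPM in control, 62.4 against 10.95 CPM in BTYNB and 72.5 against 13.6 CPM in combination. Krtdap stood at 896 against 67.9 CPM in anti-PD-1, 443 against 36.1 CPM in control, 357 against 34.7 CPM in BTYNB and 538 against 51.4 CPM in combination. These genes made the rule, so a higher level in members describes the choice and not a finding. Between libraries the levels in members differed least for Krtdap and most for Gkn2.

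Apoa1, the main protein of high-density lipoprotein and not part of the rule, followed Gkn2. It was at 1162 against 29.7 CPM (log2 ratio 5.24) in members and other cells of anti-PD-1, 4.29 against 3.15 CPM in control, 3.21 against 1.79 CPM in BTYNB and 4.82 against 1.55 CPM in combination. The level in members of anti-PD-1 was 271-fold that of control (190 to 401), 361-fold that of BTYNB (264 to 508) and 241-fold that of combination (184 to 323). An Apoa1 UMI was seen in 80.6% of members of anti-PD-1 (75.6% after thinning) and in 5.36%, 7.16% and 6.50% of members of control, BTYNB and combination. Tspan8, a tetraspanin of gut epithelium, separated the cells far less. It was at 1137 against 458 CPM (log2 ratio 1.31) in anti-PD-1, 631 against 447 CPM (0.50) in control, 485 against 366 CPM (0.41) in BTYNB and 552 against 394 CPM (0.49) in combination, and 98.7% to 99.5% of members had a UMI of it in every library.

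Free RNA can place UMIs in cells that do not express a gene. It was gauged in the 334 anti-PD-1 cells with a Ptprc UMI and fewer than 5 gate UMIs (median depth 4167 UMIs). For Apoa1, which the rule did not use, the share of cells with a UMI was 2.69% in these Ptprc-positive cells, 80.6% in members and 9.54% in other tumour-gated cells, or 3.17%, 75.6% and 7.34% after thinning to 5000 UMIs. For Gkn2 it was 1.497% in Ptprc-positive cells (5 of 334), 61.9% in members and 3.43% in other tumour-gated cells, or 0 of 63 (which allows up to 4.76%), 57.0% and 2.37% after thinning. Gkn2 is a rule gene, so its shares in members and other tumour-gated cells were shaped by the choice of cells, and nothing is read from their distance.

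**Figure D2:**
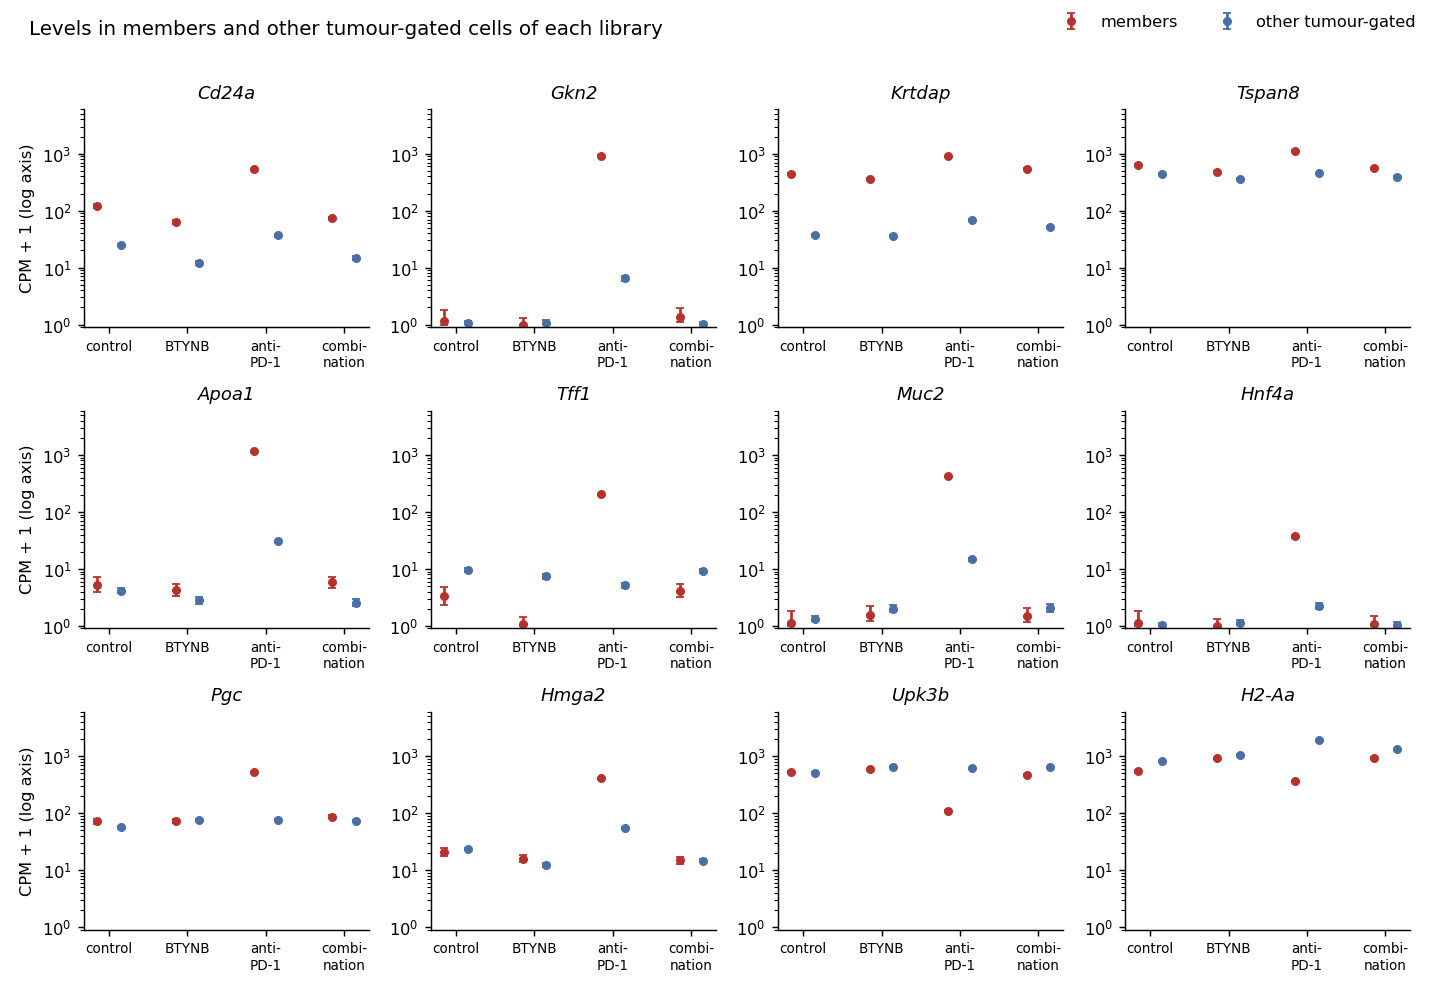
CPM plus 1 (log axis) of 12 genes in members (red) and other tumour-gated cells (blue) of each library, with exact 95% Poisson intervals. Gkn2, Apoa1, Tff1, Muc2, Hnf4a, Pgc and Hmga2 stand apart in members of anti-PD-1 (Apoa1 1162 CPM, at most 4.82 CPM in members of another library), where Upk3b and H2-Aa are low.

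Within anti-PD-1, 585 of 12912 genes were at least 2-fold higher in members than in the other tumour-gated cells (4.53%) and 1351 were at least 2-fold lower (10.5%). Log2 ratios were taken of CPM plus 1, which understates the difference of genes of low level, for genes with at least 100 UMIs over both groups of cells. Of the 585 higher genes, 134 reached 100 UMIs only through the members. A value in brackets after a pair of levels is the log2 ratio. The median log2 ratio of all genes was -0.16, and 63% of genes lay below 0. Ratios and counts of single lists are to be read against these values and the shares above. With 1 library per treatment no test was possible, and 2-fold is a mark of size only. Scaling by the median of gene ratios set that median to 0 and gave 739 genes higher and 1000 lower. Counts of near-identical paralogs, as in the H2, Gbp, Gsta and Gstm families, may share reads and are less certain.

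Genes of the gastric mucosa stood at the head of the higher genes. Of the 16 genes of the gastric mucous list that reached 100 UMIs, Gkn2 not counted, 12 were at least 2-fold higher and 0 lower, but 5 of the 12 (Gkn1, Cldn18, Anxa10, Tff2 and Dmbt1, with 10 to 74 UMIs in the other cells) reached 100 UMIs only through the members and had to differ. With 100 UMIs asked of the other tumour-gated cells alone, a filter added after the data were seen, 7 of 11 were at least 2-fold higher and 0 lower (median log2 ratio 1.77), against 3.69% higher of all genes so filtered. The list was drawn up with results of these cells known, so its direction is a description. Tff1, a trefoil peptide of gastric pit cells, was at 203 against 4.12 CPM (log2 ratio 5.31), and Tff2, the trefoil peptide of neck cells, at 39.97 against 1.30 CPM (4.15). The interval of the Tff1 ratio, taken without the pseudocount as for all ratios, was 5.43 to 5.82 on the log2 scale. Cldn18, a tight junction protein of stomach and lung, was at 32.9 against 0.546 CPM (4.45), Anxa10, an annexin of gastric epithelium, at 30.4 against 0.740 CPM (4.17), and Pgc, the precursor of the protease gastricsin, at 518 against 75.9 CPM (2.75). Gkn1, the second gastrokine, was at 9.10 against 0.176 CPM (3.10). The 11 marker genes of stomach summed to 737 against 81.1 CPM, and those with 100 UMIs were Tff1, Pgc and, only through the members, Gkn1. Genes of the acid pump (Atp4a, Atp4b), intrinsic factor and the mucins Muc5ac and Muc6 did not reach 100 UMIs.

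The sequence before the Gkn2 start is shown because Gkn2, a gene of the rule, was frequent in members of anti-PD-1 and rare in those of other libraries. That before Mmp13, one of the 25 highest genes, is shown because forkhead and AP-1 letters both fell into it. These sequences are the 250 bases upstream of the start in RefSeq, plus strand of GRCm38.p6, at chr6:87373115-87373364 and chr9:7272264-7272513. The submitters' processing notes name GRCm39 for the deposited counts, which carry gene symbols only. Capitals mark TATAAA in Gkn2, and TGTTTAC (a forkhead motif) followed by TGANTCA (the AP-1 motif) in Mmp13, whose TATAAA is left in lower case.
Gkn2: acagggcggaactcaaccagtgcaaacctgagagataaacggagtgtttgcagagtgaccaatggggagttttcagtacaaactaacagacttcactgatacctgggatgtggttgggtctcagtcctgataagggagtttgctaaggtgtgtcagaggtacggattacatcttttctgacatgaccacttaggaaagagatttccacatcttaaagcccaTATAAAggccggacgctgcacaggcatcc
Mmp13: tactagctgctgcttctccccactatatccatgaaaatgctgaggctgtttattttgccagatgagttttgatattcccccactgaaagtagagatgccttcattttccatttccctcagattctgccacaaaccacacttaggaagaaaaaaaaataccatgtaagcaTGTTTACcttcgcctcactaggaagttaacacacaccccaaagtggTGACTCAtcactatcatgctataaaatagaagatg
TATAAA began 29 bases before the Gkn2 start and was found, on either strand, in 14.2% of the 27018 RefSeq windows of this kind, which run from 250 bases before to 50 after a start. The forkhead and AP-1 letters began 81 and 35 bases before the Mmp13 start and occurred in 3.55% and 7.94% of all windows. CAAAGTCCA (HNF4), also searched, occurred in 0.477% of all windows and in neither of these. A match describes letters and not a bound site. Only 16 of the 25 highest genes had a window, so a share of motifs over them would be void.

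Further epithelial secretory genes were among the 25 highest. Muc2, the gel-forming mucin of intestinal goblet cells, was at 421 against 13.6 CPM (log2 ratio 4.85), with a UMI in 59.1% of members (50.6% after thinning). Its share in other tumour-gated cells was 6.16%, no higher than the 6.29% of Ptprc-positive cells. Muc5b and Muc3, further mucins, were at 83.8 against 6.64 CPM (3.47) and 13.1 against 0.229 CPM (3.52), and Gcnt3, which branches mucin sugars, at 105 against 3.72 CPM (4.49). No Gcnt3 UMI was counted in any tumour-gated cell of the other 3 libraries. Phgr1, a small protein of gut epithelium, was at 53.3 against 0.617 CPM (5.07), and Vil1, the villin of brush borders, at 30.6 against 2.61 CPM (3.13). Muc2 and Vil1 were the 2 genes past 2-fold of the 3 intestinal markers with 100 UMIs. Cdx1 and Cdx2, the defining factors of intestine, did not reach 100 UMIs.

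Apolipoproteins other than Apoa1 divided. Among all genes 4.53% were at least 2-fold higher and 10.5% lower. Of 9 genes of the list with 100 UMIs, 3 were at least 2-fold higher, Apoa1, Apoc4 (61.9 against 4.92 CPM, log2 ratio 3.41) and Apoc1 (30.01 against 5.11 CPM, log2 ratio 2.34), which ride on plasma lipoproteins. Clu, the chaperone clusterin, was at least 2-fold lower at 346 against 929 CPM (-1.42). Lpl, lipoprotein lipase, was at 368 against 585 CPM (-0.67).

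Of the 14 epithelial transcription factors with 100 UMIs, 4 were at least 2-fold higher in members of anti-PD-1, 1 was lower and 8 lay below 0 (median -0.52), so the list as a whole was not higher. Of the 4, Hnf4a reached 100 UMIs only through the members. With 100 UMIs asked of the other tumour-gated cells alone, 3 of 12 were at least 2-fold higher, against 3.69% of all genes so filtered. Hnf4a, a nuclear receptor of liver and intestine, was at 36.7 against 1.22 CPM (log2 ratio 4.09), with a UMI in 24.3% of members, 0.748% of other tumour-gated cells and 0.299% of Ptprc-positive cells. Foxa1, a forkhead factor of glands, was at 35.9 against 2.82 CPM (3.27), Spdef, a factor of goblet cells, at 14.9 against 1.90 CPM (2.45), and Onecut2 at 59.3 against 13.3 CPM (2.08). In members of the other libraries Foxa1 was at 2.57, 2.31 and 2.59 CPM.

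Hmga2, an oncofetal chromatin protein, was at 412 against 54.9 CPM (log2 ratio 2.89) in anti-PD-1, with 19.7, 14.9 and 13.8 CPM in members of control, BTYNB and combination. Igf2bp1, whose protein BTYNB inhibits, was low in all cells and differed little, at 10.9 against 12.8 CPM (-0.22). Of 7 genes of the oncofetal list with 100 UMIs, Hmga2 was the 1 past 2-fold upward, while Msi1 (-2.08) and Mex3a (-1.43), RNA-binding proteins, were at least 2-fold lower. Of 19 stem-like genes, 2 were at least 2-fold higher and 5 lower, against 4.53% and 10.5% of all genes. The higher pair were surface receptors: Itga6, an integrin for laminin, at 1298 against 320.5 CPM (2.01), and Cd44, the receptor for hyaluronan, at 627 against 231 CPM (1.44). Axin2 (-1.93), a Wnt target, and Sox4 (-1.78) were among the lower.

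Several of the 25 highest genes are known from blood cells. Cma1 and Mcpt2, proteases of mast cells, were at 529.7 against 39.6 CPM (3.71) and 15.9 against 0.317 CPM (3.68). Mgl2, a lectin of macrophages and dendritic cells, was at 110.03 against 7.12 CPM (3.77), and Tnf, an inflammatory cytokine, at 39.7 against 2.54 CPM (3.52). Krt23, a keratin that is not in the gate, was at 123 against 8.79 CPM (3.66), and Mmp13, a collagenase, at 89.3 against 3.15 CPM (4.44). Ifi27l2b, Avil, Cyp2d26, Disp2, Spats2l, Kcne3 and Bace2 were also among the 25, with log2 ratios from 3.56 to 4.06. Pthlh, parathyroid hormone-like hormone (483 against 54.5 CPM, log2 ratio 3.13), and Cd52, a surface peptide of lymphocytes (253 against 30.4 CPM, log2 ratio 3.02), were picked after their values were seen.

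Marker lists of leukocytes, apart from that of dendritic cells, held no gene at least 2-fold higher in members. Of the T and B cell lists only 1 gene each reached 100 UMIs, and of the NK and neutrophil lists 0 did. Few or no genes of those lists could be called, so nothing is read from the absence there. The macrophage list summed to 97.2 CPM in members, 121 CPM in other tumour-gated cells and 22627 CPM in Ptprc-positive cells, with 0 of its 9 genes at 100 UMIs past 2-fold. The T cell list summed to 6.22 against 14.2 CPM, the NK list to 2.29 against 1.81 CPM, the B cell list to 28.9 against 24.8 CPM and the neutrophil list to 2.76 against 3.24 CPM. In these lists 2 NK genes and 1 neutrophil gene were at 0 in members. In the dendritic cell list Ccr7, a chemokine receptor of migrating dendritic and lymphoid cells, was at 114 against 10.3 CPM (3.34), and its list summed to 142 against 47.6 CPM. The other dendritic gene with 100 UMIs, Zbtb46, was not past 2-fold. The endothelial (25.7 against 27.1 CPM), erythroid (44.4 against 57.9 CPM), keratinocyte (37.1 against 35.998 CPM), acinar (22.5 against 40.4 CPM) and oviduct (1.91 against 4.02 CPM) lists held no gene past 2-fold, and all 5 fibroblast genes with 100 UMIs were lower (81.5 against 376 CPM). Only 1 endothelial, 5 erythroid, 4 keratinocyte, 1 acinar and 2 oviduct genes reached 100 UMIs. Doublets were kept, since the caller marked 20 cells of this library, and 137 members (4.94%) lay among the 5% of cells of highest score.

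Genes of glycolysis lay above 0 more often than below, with 13 above and 7 below of the 20 that had 100 UMIs. Of the 20, 5 were at least 2-fold higher and 1 lower, against 4.53% and 10.5% of all genes, with a median log2 ratio of 0.61. Pgk1, phosphoglycerate kinase, differed most at 1722 against 420.04 CPM (log2 ratio 2.03), with an interval of 2.01 to 2.06. Slc2a1, the glucose transporter GLUT1, was at 96.7 against 38.3 CPM (1.31), Ldha, which makes lactate, at 843 against 368 CPM (1.20), and Gapdh at 3045 against 1438 CPM (1.08). Pkm (0.98), Pgam1 (0.86), Tpi1 (0.74) and Aldoa (0.72) lay above 0 but short of 2-fold, and the muscle-type phosphofructokinase gene Pfkm was lower (-1.08). In control, BTYNB and combination Pgk1 was at 368 against 279 CPM, 363 against 257 CPM and 359 against 237 CPM, and no glycolysis gene was past 2-fold.

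Hypoxia-response genes went both ways, with 6 at least 2-fold higher and 6 lower of 28 (median 0.33). All genes had 4.53% higher and 10.5% lower, so both counts were above those shares, the higher one by more. Angptl4, an inhibitor of lipoprotein lipase, was at 223 against 36.6 CPM (2.58), Hilpda, a protein of lipid droplets, at 224 against 44.3 CPM (2.31), and Ero1a, an oxidase of the endoplasmic reticulum, at 572 against 121 CPM (2.23). Lox, which crosslinks collagen, was at 1.36 against 10.1 CPM (-2.23). The summed level of the glycolysis list was 11724 against 5846 CPM and that of the hypoxia list 3561 against 2473 CPM.

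The upstream sequences of Pgk1 and Ldha are shown as examples of higher glycolytic genes whose windows held ACGTG more than 1 time. ACGTG is the core of the hypoxia response element. Pfkm, which was at least 2-fold lower, held it 3 times and is not shown. Whether the motif went with direction was not tested. The printed sequences lie at chrX:106186850-106187099 and chr7:46845554-46845803 on the plus strand of GRCm38.p6 (RefSeq), and capitals mark ACGTG or its reverse complement CACGT.
Pgk1: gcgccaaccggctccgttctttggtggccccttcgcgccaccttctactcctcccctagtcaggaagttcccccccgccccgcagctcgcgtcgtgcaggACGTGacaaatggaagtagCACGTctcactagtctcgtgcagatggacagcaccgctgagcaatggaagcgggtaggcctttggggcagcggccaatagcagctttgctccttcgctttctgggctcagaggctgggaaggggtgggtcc
Ldha: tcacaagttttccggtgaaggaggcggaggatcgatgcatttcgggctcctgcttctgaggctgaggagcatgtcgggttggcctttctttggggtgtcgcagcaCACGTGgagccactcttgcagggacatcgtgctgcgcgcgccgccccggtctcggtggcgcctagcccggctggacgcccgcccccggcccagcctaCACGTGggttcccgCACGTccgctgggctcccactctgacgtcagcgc
The Pgk1 matches began 150 and 131 bases before the start and the Ldha matches 145, 144, 48, 47 and 34 bases before it, some of them overlapping on opposite strands. Windows were at hand for 44 of the 51 genes of the glycolysis and hypoxia lists, and 24 of the 44 (54.5%) held ACGTG, against 5314 of all 27018 (19.7%). Both lists were drawn up from genes long known for this response, and the share is a property of the lists and not of these cells.

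Respiration genes differed little between members and other cells of anti-PD-1. None of 40 oxidative phosphorylation genes or 15 genes of the citric acid cycle was past 2-fold, with medians of -0.09 and -0.06 that turned to 0.07 and 0.10 when gene ratios set the scale. All 13 mitochondrially encoded genes lay below 0 (median -0.24, or -0.07 on that scale). Of cell cycle genes, 2 of 30 S phase genes (6.67%) and 3 of 30 G2M genes were at least 2-fold higher, against 4.53% of all genes (medians 0.24 and 0.46). Rrm2, of ribonucleotide reductase, was at 195 against 84.01 CPM (1.20) and Cdk1, the mitotic kinase, at 319.8 against 148 CPM (1.10). When the other cells were weighted to the depth of the members, the S phase median was 0.00 and the G2M median 0.17, so the medians moved with depth. None of 80 ribosomal protein genes was past 2-fold (median 0.29).

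Mesothelial genes, the identity of the parent line, were lower in members of anti-PD-1. Of 17 genes of the mesothelial list with 100 UMIs, 11 were at least 2-fold lower, against 10.5% of all genes, and all 17 lay below 0 (median -1.87). Upk3b, a uroplakin of mesothelium, was at 109.6 against 612 CPM (log2 ratio -2.47), with an interval of -2.54 to -2.42. Muc16, the CA125 antigen, was at 6.42 against 53.5 CPM (-2.88), Igfbp5, which binds insulin-like growth factors, at 113 against 838 CPM (-2.88), Rspo1, an enhancer of Wnt signalling, at 8.32 against 59.3 CPM (-2.69), and Gpm6a at 60.96 against 346 CPM (-2.49). They were named for their size or level, and the other 6 genes of the list were not past 2-fold.

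Wt1, which is part of the gate, was at 445 against 756 CPM (-0.76), and Aldh1a1, an aldehyde dehydrogenase, at 557 against 899 CPM (-0.69). The keratins of the gate diverged. Krt18 (1033 against 525 CPM, log2 ratio 0.97), Krt8 (696 against 387 CPM, log2 ratio 0.85) and Krt19 (1283 against 719 CPM, log2 ratio 0.83) lay above 0, and Krt7 was lower (4.59 against 20.1 CPM, log2 ratio -1.91). These 5 genes were used to gate the cells, so their sums had a floor in both groups.

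Mesenchymal and matrix genes were lower as well, with 11 of 21 at least 2-fold lower, against 10.5% of all genes, and 0 higher (median -1.05). Acta2, smooth muscle actin, was at 2.84 against 23.5 CPM (-2.67), Col3a1, a fibrillar collagen, at 3.97 against 29.9 CPM (-2.64), Tagln, an actin-binding protein, at 1.32 against 10.2 CPM (-2.27), and Col6a1 at 20.1 against 89.4 CPM (-2.10). Vim, the intermediate filament of mesenchyme, did not follow (2117 against 1770.2 CPM, log2 ratio 0.26), and Lgals1, galectin 1, was at 5757 against 11904 CPM (-1.05). Junction genes of epithelium were not higher in their place: of 9 with 100 UMIs 0 were at least 2-fold higher and 2 lower (Cdh3 -1.19, Spint2 -1.05). Epcam and Cdh1, the defining adhesion genes of epithelium and looked up after other values were seen, were at 0.0778 and 0.894 CPM in members. Of 14 epidermal genes, Krtdap not counted, 1 was higher (Perp 1.05) and 2 were lower (Dsg2 -1.53, Dmkn -1.30).

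The 15 lowest genes also held Angptl7 (0.933 against 15.9 CPM, log2 ratio -3.13), a secreted angiopoietin-like protein, Aplp1 (4.82 against 48.7 CPM, log2 ratio -3.09), of the amyloid precursor family, and Uchl1 (4.67 against 42.3 CPM, log2 ratio -2.93), a ubiquitin hydrolase. The rest were Fam180a, Ptgds, H2-Eb2, Gas1, Gstm1, Unc45b, Sectm1b and Bicc1, with log2 ratios from -2.83 to -2.67. Windows of 14 of the 15 were at hand, and 0 of them held TATAAA, against 14.2% of all windows. With so few windows nothing is read from this count.

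Genes of MHC class II, which present peptides to CD4 T cells, were uniformly lower in members of anti-PD-1. All 7 were at least 2-fold lower (median -2.06), against 10.5% of all genes. H2-Aa was at 364 against 1915 CPM (log2 ratio -2.39), with an interval of -2.42 to -2.36, H2-Eb1 at 264 against 1303 CPM (-2.30) and H2-Ab1 at 213 against 999.97 CPM (-2.22). Cd74, the invariant chain, was at 253 against 1056 CPM (-2.06), and Ciita, the transactivator of these genes, at 6.53 against 29.6 CPM (-2.02). The peptide exchange genes H2-DMa and H2-DMb1 had ratios of -1.75 and -1.70. The level of H2-Aa in these members was also below that in members of control (546 CPM), BTYNB (926 CPM) and combination (934 CPM). In those libraries all 7 genes lay below 0, as did 60.6%, 61.6% and 62.1% of all genes. None of the 7 was 2-fold lower, with medians of -0.49, -0.18 and -0.40.

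MHC class I differed less, and 10.5% of all genes were at least 2-fold lower. Of 16 genes with 100 UMIs, 3 were at least 2-fold lower (median -0.70), namely H2-Q4 (-1.89), Nlrc5 (-1.12), the class I transactivator, and Tapbp (-1.11), which loads peptides. H2-K1, a classical heavy chain, was at 1666 against 3324 CPM (-0.996), just short of 2-fold, H2-D1 at 1737 against 2488 CPM (-0.52) and B2m, the light chain, at 2982 against 4271 CPM (-0.52). The chaperones Calr (0.28) and Pdia3 (0.47) lay above 0. The medians of the class I list in control, BTYNB and combination were 0.09, 0.05 and 0.03, with 2, 1 and 2 of 17 genes at least 2-fold lower.

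Interferon-response genes were lower along with class II. Of 20 interferon gamma genes with 100 UMIs, 15 were at least 2-fold lower and all 20 lay below 0 (median -1.34), against 10.5% and 63% of all genes. They included the GTPases Iigp1 (29.98 against 138 CPM, log2 ratio -2.17), Gbp3 (21.9 against 78.4 CPM, log2 ratio -1.80), Gbp2 (108 against 374 CPM, log2 ratio -1.79) and Gbp6 (12.3 against 42.6 CPM, log2 ratio -1.71), which act against intracellular microbes. Of 23 type I interferon genes, 12 were at least 2-fold lower and 1 higher (median -1.02), against 10.5% and 4.53% of all genes. Ifit2 (-2.05), Oasl2 (-2.01) and Ifi44 (-1.84) were among the lower, while Mx1, an antiviral GTPase, was higher at 13.1 against 0.987 CPM (2.83). Mx1 reached 100 UMIs only through the members. With 100 UMIs asked of the other tumour-gated cells alone, 0 of 21 were at least 2-fold higher. In control, BTYNB and combination no interferon gamma gene was past 2-fold and the medians were -0.09, -0.02 and -0.14. The type I genes were lower in members there as well, with medians of -0.37, -0.44 and -0.40. Of 22 type I genes, 20, 21 and 21 lay below 0, against 60.6%, 61.6% and 62.1% of all genes. At least 2-fold lower were 2, 2 and 1, against 1.42%, 0.931% and 1.88% of all genes.

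The sequence upstream of Gbp7 is shown as that of a GTPase of the same family with a pair of STAT motifs. Gbp7, named after its value was seen, was at 32.97 against 104 CPM. It lies at chr3:142530086-142530335 on the plus strand of GRCm38.p6 (RefSeq), with TTCNNNGAA in capitals.
Gbp7: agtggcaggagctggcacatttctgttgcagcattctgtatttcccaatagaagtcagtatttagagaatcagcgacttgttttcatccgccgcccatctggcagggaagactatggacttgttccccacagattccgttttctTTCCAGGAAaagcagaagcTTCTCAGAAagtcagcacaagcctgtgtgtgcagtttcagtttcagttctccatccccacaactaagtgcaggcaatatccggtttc
The matches began 106 and 87 bases before the start, and TTCNNNGAA occurred in 8.47% of all windows. Windows were at hand for 16 of the 21 interferon gamma genes, under 80%, so no share is given for them.

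Ligands of immune checkpoints had 1 of 14 genes at least 2-fold higher and 2 lower, near the 4.53% and 10.5% of all genes. Lgals3, galectin 3, was the higher (406 against 145 CPM, log2 ratio 1.48), while Vtcn1, B7-H4 (2.02 against 12.9 CPM, log2 ratio -2.21), and Nectin4 (1.36 against 4.56 CPM, log2 ratio -1.24) were lower. Cd274, the gene of PD-L1, was at 11.04 against 20.8 CPM (-0.85). Of the 8 genes of the phagocytosis checkpoint list other than Cd24a, 0 were past 2-fold (median -0.54). Cd47, which signals through SIRPa on phagocytes, was at 303 against 317 CPM (-0.07).

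Secreted complement and defence proteins were mostly lower, with 11 of 14 at least 2-fold lower (median -1.56), against 10.5% of all genes. C1s1 (82.5 against 424 CPM, log2 ratio -2.35), C4b (1.13 against 9.48 CPM, log2 ratio -2.30) and C3 (44.9 against 218 CPM, log2 ratio -2.25) belong to the complement cascade. Spp1, osteopontin, was the 1 gene of the list at least 2-fold higher, at 458 against 66.5 CPM (2.77). In control, BTYNB and combination the medians of the list were -0.55, -0.59 and -0.65. There 5 of 15, 3 of 14 and 4 of 14 genes were at least 2-fold lower, against 1.42%, 0.931% and 1.88% of all genes.

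Lists of stress programmes had medians short of 2-fold, and that of the NF-kB genes was the lowest. Their counts stand beside 4.53% higher and 10.5% lower of all genes, and their medians beside -0.16. Of 18 p53 target genes 2 were at least 2-fold higher and 3 lower (median -0.09): Cdkn1a, the inhibitor p21, was at 96.1 against 18.8 CPM (2.29), and Sesn1 (-1.72), Trp53inp1 (-1.55) and Fas (-1.45) were lower, in cells that carry a Trp53 knockout. Trp53 itself was at 22.2 against 26.4 CPM, which does not check the knockout, since the reads lie at the end of the transcript. Of 22 redox genes 4 were higher and 3 lower. Gsto1 (430.4 against 88.4 CPM, log2 ratio 2.27) and Gsta4 (689 against 199 CPM, log2 ratio 1.79) were higher, and Gstm1 (67.4 against 442 CPM, log2 ratio -2.70) and Gstm2 (115 against 511 CPM, log2 ratio -2.15) lower, all of them glutathione transferases. Of 20 immediate early genes 1 was higher, Fosl1, an AP-1 subunit (90.7 against 21.4 CPM, log2 ratio 2.04), and 4 were lower, among them Fosl2 (-1.49), Jun (-1.48) and Atf3 (-1.03). In that list 14 genes lay below 0 (median -0.31). Of 19 NF-kB genes 16 lay below 0 (median -0.56). Past 2-fold, Tnf was higher and 2 were lower, the chemokines Cxcl1 (-1.18) and Ccl2 (-1.18). Of 19 genes of stress in the endoplasmic reticulum, Herpud1 (1.35) and Vldlr (1.24) were higher and 3 were lower, Atf5 (-1.28), Trib3 (-1.18) and Atf3. Of 10 heat shock genes Hspa1b alone was past 2-fold (53.3 against 18.1 CPM, log2 ratio 1.503).

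**Figure D3:**
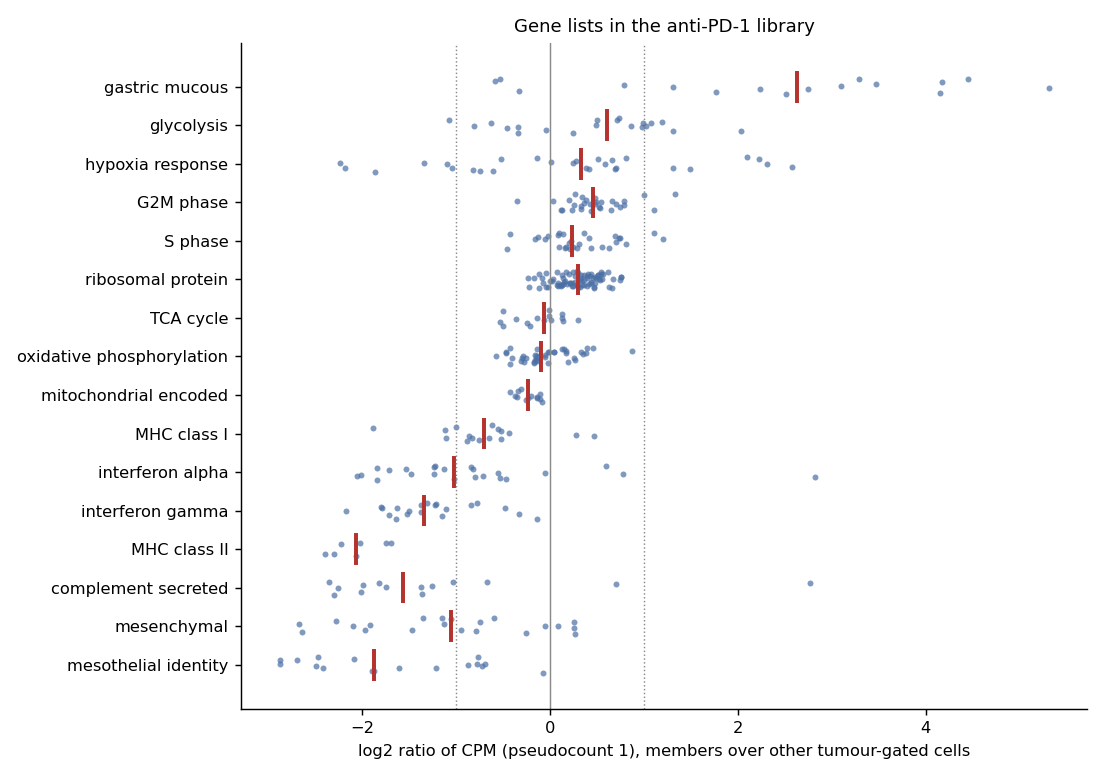
Log2 ratio of CPM (pseudocount 1) of members over other tumour-gated cells in anti-PD-1, for each gene with at least 100 UMIs (points) of 16 gene lists, with the list median (red) and 2-fold (dotted lines). Glycolysis has its median at 0.61 and MHC class II at -2.06, while the points of oxidative phosphorylation lie between the dotted lines.

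Levels differed with the number of rule-gene UMIs in a cell. Of the tumour-gated cells of anti-PD-1, 4730 had 0 of these UMIs, 2595 had 1 to 2, 827 had 3 to 4, 869 had 5 to 9, 785 had 10 to 19, 685 had 20 to 39 and 432 had 40 or more. Apoa1 ran from 11.5 CPM at 0 through 101 at 3 to 4, 412 at 5 to 9 and 959 at 10 to 19 to 2113 CPM at 40 or more. Tff1 stayed at 3.04 to 4.96 CPM below 5 UMIs and then ran through 12.0, 54.5 and 232 to 702 CPM. Upk3b went the other way, from 659 CPM at 0 through 252 at 5 to 9 to 26.3 CPM at 40 or more, and H2-Aa from 2080 to 100.4 CPM. Spp1 had its highest level in between, with 24.3 CPM at 0, 728 CPM at 10 to 19 and 65.9 CPM at 40 or more. The median depth of a cell was higher along the same bins from 6090 to 10452.5 UMIs, and its part in these levels was not tested.

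Cells next to the threshold are described by genes outside the rule. Cells with exactly 4 rule-gene UMIs, just outside, numbered 333 and had 138 CPM of Apoa1, 416 of Upk3b and 1198 of H2-Aa. Cells with exactly 5, just inside, numbered 244 and had 277, 309 and 911 CPM. Members with 5 to 9 UMIs made up 31.4% of the members of anti-PD-1.

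**Figure D4:**
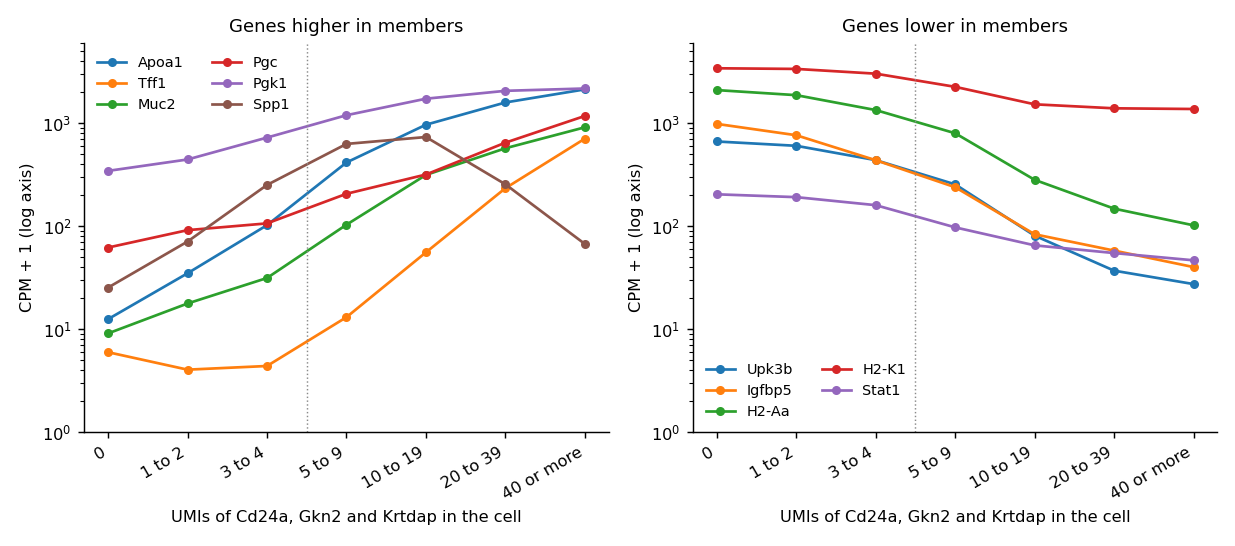
CPM plus 1 (log axis) of genes higher (left) or lower (right) in members, in tumour-gated cells of anti-PD-1 by their UMIs of Cd24a, Gkn2 and Krtdap; the dotted line marks the threshold of 5. From the lowest to the highest bin Apoa1 goes from 11.5 to 2113 CPM and Upk3b from 659 to 26.3 CPM, and Spp1 is highest at 10 to 19 UMIs.

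Clustering that left out the 3 rule genes put most members of anti-PD-1 together. Of 8 clusters, cluster 4 held 1301 members among 1673 cells (77.8%) and cluster 5 held 1041 among 1222 (85.2%), together 2342 of the 2771 members (84.5%). Every other cluster was 1.10% to 12.1% members. Cluster 5 differed from cluster 4 mainly by mitotic genes, such as Ube2c at 987 against 22.5 CPM and Plk1 at 79.0 against 2.72 CPM. Summed G2M genes were at 7794 CPM in cluster 5 and 732 CPM in cluster 4. Both had Gkn2 (1035 and 838 CPM), Apoa1 (1274 and 1149 CPM) and little Upk3b (35.0 and 32.8 CPM). Clusters were formed from these genes, so the levels are a description.

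The 429 members outside clusters 4 and 5 resembled the other tumour-gated cells. A Gkn2 UMI was present in 7.69% of them and an Apoa1 UMI in 12.6%, against 71.8% and 93.0% of the 2342 members inside. They had 504 CPM of Upk3b and 1492 CPM of H2-Aa, whereas the members inside had 31.6 and 141 CPM. Their Krtdap was 639 CPM, against 947 CPM inside. Conversely, 553 cells with 0 to 4 rule-gene UMIs lay in clusters 4 and 5 and had 275 CPM of Apoa1, 1435 CPM of Pgk1 and 44.9 CPM of Upk3b. Over the members in clusters 4 and 5 alone, chosen after the data were seen, the MHC class II median was -3.22, the interferon gamma median -1.69 and the mesothelial median -3.13.

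**Figure D5:**
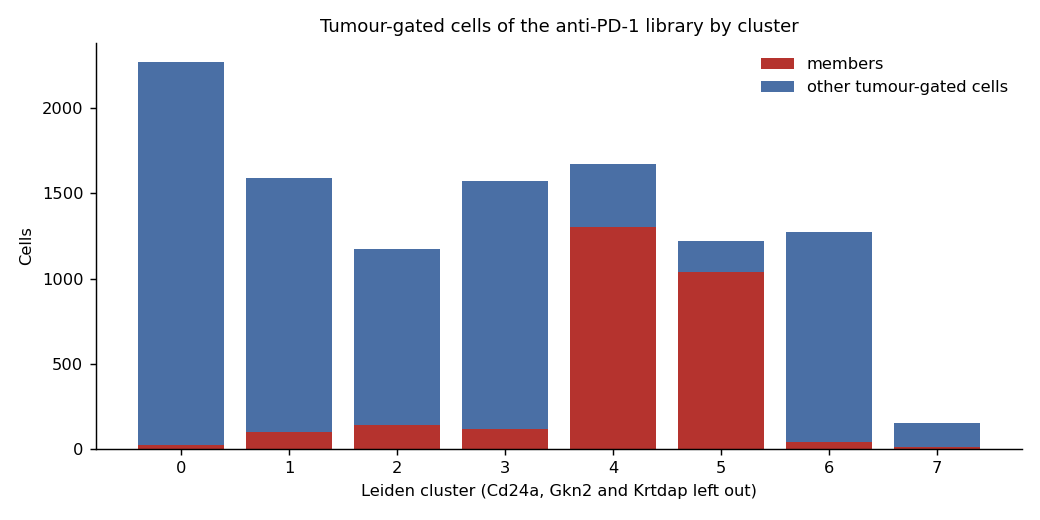
Tumour-gated cells of anti-PD-1 in 8 Leiden clusters computed without Cd24a, Gkn2 and Krtdap, with members in red and other cells in blue. Members fill 77.8% of cluster 4 and 85.2% of cluster 5 and at most 12.1% of any other cluster.

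In the other 3 libraries members and other cells were far more alike. In control 55 of 12569 genes were at least 2-fold higher (0.438%) and 178 lower (1.42%), in BTYNB 36 of 12242 (0.294%) and 114 (0.931%), and in combination 48 of 12255 (0.392%) and 231 (1.88%). Of the 25 highest genes of anti-PD-1, 8, 5 and 8 reached 100 UMIs in control, BTYNB and combination, and 0, 0 and 3 of these were at least 2-fold higher there. The 3 of combination were Apoa1 (1.19), Cma1 (1.38) and Tnf (1.23), at 4.26 to 4.82 CPM in members. The 15 lowest genes carried over further in direction: 14, 15 and 15 lay below 0, against 60.6%, 61.6% and 62.1% of all genes. At least 2-fold lower were 5, 3 and 8, against 1.42%, 0.931% and 1.88% of all genes. Muc16, for example, had log2 ratios of -1.16, -1.45 and -1.65. Members of the other libraries thus had somewhat less of the lowest genes without the gastric ones.

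Tff1 and Tff2 ran in the opposite direction outside anti-PD-1. Tff1 was at 2.29 against 8.56 CPM in control, 0.0824 against 6.45 CPM in BTYNB and 3.15 against 8.13 CPM in combination, lower in members of all 3. Tff2 was at 0.429 against 4.49 CPM in control and 0.185 against 2.71 CPM in combination. Pgc was not past 2-fold there (70.9 against 56.7 CPM, 71.6 against 75.02 CPM and 86.3 against 72.4 CPM), and neither was Hmga2.

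A set of 16 genes was at least 2-fold higher in members of control, BTYNB and combination, and 3 of these (Rac2, Ngef and Tnfrsf21) also in anti-PD-1. They were picked by this pattern and are described without a test. Myl7, an atrial myosin light chain, was at 92.8 against 22.2 CPM in control, 47.5 against 9.84 CPM in BTYNB and 78.3 against 15.4 CPM in combination, but at 20.3 against 24.3 CPM in anti-PD-1. Krt14, the keratin of basal epidermis, was at 54.1 against 16.03 CPM, 47.2 against 18.2 CPM and 60.9 against 23.8 CPM, and at 9.64 against 15.96 CPM in anti-PD-1. Rac2, a small GTPase of leukocytes, was at 64.9 against 15.9 CPM, 45.0 against 13.5 CPM and 74.9 against 19.1 CPM, and at 145 against 38.7 CPM in anti-PD-1. The genes of lowest ratio in all 3 libraries were Col1a1, Col1a2, Saa3, Slpi and Mgp, of matrix and acute-phase proteins. Col1a2 was at 0.858 against 30.7 CPM in control, 1.07 against 71.3 CPM in BTYNB and 1.48 against 62.6 CPM in combination.

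In control, neutrophil genes were also higher in members, with Ngp at 30.3 against 1.66 CPM, S100a8 at 38.0 against 6.06 CPM and S100a9 at 20.6 against 4.75 CPM. The neutrophil list summed to 59.9 against 12.5 CPM there and 399 CPM in Ptprc-positive cells, and whether neutrophil RNA took part in other differences of control was not tested. The list summed to 4.78 against 9.51 CPM in BTYNB and 6.02 against 1.69 CPM in combination.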

How the data were processed

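Ascites cells of 4 treatments (control, BTYNB, anti-PD-1, combination) were sequenced as 1 pooled library each. The authors deposited raw UMI counts per gene and cell, made per the study's methods with the BD Rhapsody pipeline. The submitters' processing notes name GRCm39. Genes were joined over the libraries by symbol (29835). The stated filter of 200 genes and 33% mitochondrial UMIs was applied. The study called doublets with scDblFinder. Here scrublet scores were computed, doublets were kept, and removing the 5% of cells with the highest scores was an alternative. Total UMIs were 78603888 to 114600397 per library.

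Members, gene lists and named genes were chosen with earlier results of these data known. Counts were summed over cells and given as CPM, with a pseudocount of 1 CPM in log2 ratios and at least 100 UMIs per gene. With 1 library per treatment no test was made. Intervals are exact 95% (Clopper-Pearson for shares, Poisson for levels, conditional binomial for ratios), and a count of 0 was bounded by 3 counts. Genes named were the markers, the 25 highest and 15 lowest of anti-PD-1 (no rule genes, mt- genes, Gm or Rik names), per list every gene up to 10, otherwise the 4 of largest ratio and any above 500 CPM, and markers of other cell types; 1 of the 25 is not reported here. Cells were clustered on 2000 variable genes, 30 components and 15 neighbours (Leiden, resolution 0.5). Scripts were tested on simulated data. Python 3.11.15, numpy 2.4.6, scipy 1.17.1, pandas 2.3.3, scanpy 1.11.5, scikit-learn 1.9.0 and matplotlib 3.10.9 were used.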

Additional observations from a re-analysis of the deposited data

Results flagged for a closer look

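Tff1, Tff2 and Mgp had opposite directions in anti-PD-1 and other libraries, and with 1 library per treatment the difference was not tested. Tff1 was higher in members of anti-PD-1 (log2 ratio 5.31) and lower in members of control (-1.54), BTYNB (-2.78) and combination (-1.14). Tff2 was higher in anti-PD-1 (4.15) and lower in control (-1.94) and combination (-1.65). In BTYNB it had too few UMIs for the comparison. Mgp, matrix Gla protein and named after its values were seen, was at 87.6 against 9.90 CPM (3.02) in anti-PD-1, and had log2 ratios of -2.86 in control, -2.89 in BTYNB and -3.02 in combination. Members of control and combination had 0 Mgp UMIs, which at the floor of 3 UMIs over the group makes them at least 14.6-fold and 25.5-fold lower than the other cells.

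Gkn2 also appeared outside the tumour gate. Of 769 anti-PD-1 cells with a Ptprc UMI, 42 (5.46%, 3.96% to 7.31%) had at least 3 Gkn2 UMIs. All 42 had at least 5 UMIs of the gate genes, and their median depth was 9316 UMIs. No such cell was found among 589 Ptprc-positive cells of control (up to 0.509%), 11398 of BTYNB (up to 0.0263%) or 2548 of combination (up to 0.118%). The part of doublets in this count was not tested.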

How the results depend on the processing

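No paired analysis was possible because each treatment had 1 library and no test was made. Shares of members in control, BTYNB, anti-PD-1 and combination followed the rule closely: 14.1%, 19.8%, 32.9% and 23.4% at a threshold of 3 UMIs, 1.43%, 5.21%, 17.4% and 5.20% at 10 UMIs, 4.06%, 5.77%, 27.0% and 8.33% at 5 per 10000 UMIs, 9.01%, 16.3%, 26.2% and 19.9% for at least 3 UMIs of Gkn2 and Krtdap, 0.815%, 1.58%, 11.8% and 1.03% for at least 5 of Cd24a, and 1.55%, 2.08%, 23.4% and 3.65% after thinning. Requiring a Gkn2 UMI as well, chosen after seeing the data, gave 0.0141%, 0%, 15.7% and 0.0687%. A tumour gate of 10 UMIs gave 7.51% in control, 14.5% in BTYNB and 29.1% in anti-PD-1, and a mitochondrial limit of 20% gave 26.3% in anti-PD-1. Anti-PD-1 held the highest share under each of these rules.

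In alternatives also added after seeing the data, the share of anti-PD-1 members with a Gkn2 UMI was 79.2% at a threshold of 10 UMIs and 71.3% for Cd24a alone, which gave 0% in control and 4.44% in combination. Clusters mostly of members held 79.0% of members at resolution 1.

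Asking 100 UMIs of the other cells alone, added after seeing the data, gave 451 genes higher and 1341 lower. A pseudocount of 10 CPM left 279 genes higher and 407 lower and moved the interferon alpha median to -0.42. Weighting to the depth of members gave medians of -0.0029 for S phase, 0.17 for G2M and 0.23 for ribosomal proteins. Against cells with 0 rule-gene UMIs, G2M was at 0.56 and ribosomal proteins at 0.39. At a threshold of 10 UMIs, MHC class II was at -2.81 and mesothelial identity at -2.57. Scaling by gene ratios gave 0.072 for oxidative phosphorylation, -0.074 for mitochondrially encoded genes, 0.62 for G2M and 0.46 for ribosomal proteins. Members in clusters 4 and 5 alone gave -3.22, -1.69 and -3.13 for MHC class II, interferon gamma and mesothelial identity. In all, 15 list medians moved and 326 did not. Of the ratios of named genes 1950 moved and 4233 did not, and of the shares 37 moved and 20 did not. The 1936 genes past 2-fold kept their sign in every alternative in which they had enough UMIs. A change of pseudocount or of minimum UMIs cannot turn a sign. Scaling by gene ratios took the median of -0.16 off every log2 ratio, too little to turn one past 2-fold.

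The main limit is 1 pooled library per treatment: the spread between mice is unknown, and intervals cover counting error alone. Genes under 100 UMIs were not compared.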
